A study of Mus musculus with 6 samples.

Results

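The collagen chain genes were the genes whose symbol in the deposited tables is Col, a type number, the letter a and a chain number, and 44 of the 23420 genes met this rule. They comprised 11 chains of fibrillar collagens, 6 chains of the basement membrane collagen type IV, 9 chains of FACIT collagens (fibril-associated collagens with interrupted triple helices) and 18 other chains. The other chains were 6 of type VI, 3 of the network types VIII and X, 1 of the anchoring fibril type VII, 4 transmembrane chains, 2 multiplexins and 2 that belong to none of these. Adhesions had been raised in male C57BL/6 mice, 8 weeks of age, with talc, an irritant mineral dust, given into the pericardial cavity through the diaphragm as 300 µL of a saline-based preparation of 2.5 mg/g. Adhesion tissue was sampled at days 1, 3 and 7 and whole heart tissue at days 0, 3 and 7, as 1 library of total RNA per tissue and day, 6 in all. The day 0 heart was a normal heart, whereas the first adhesion library was taken after talc. By title and stage label the first adhesion library is of day 1, which is used here, though its source label has day 0. The first heart library is day 0 in all its labels and day 1 in a list of libraries that came with the study, and day 0 is used here. The sources used here do not say whether a library came from 1 mouse or from several. No library came from mice injected without talc, so the talc, the surgery and the passing of time cannot be told apart. Runs of 3 values for adhesion tissue stand in the order of days 1, 3 and 7, and runs of 3 values for heart in the order of days 0, 3 and 7.

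Collagen molecules are bundles of 3 chains wound into a triple helix, made of like or of unlike chains. Fibrillar collagens, above all types I and III, form the fibrils of scar tissue and of the heart's own stroma, and fibroblasts are their main source. Type IV forms the sheet under endothelium and around muscle cells, FACIT chains sit on the surface of fibrils, and type VI forms beaded filaments between fibrils and cells.

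The libraries held 1790137, 1615922 and 1844565 reads in genes in adhesion tissue and 1713031, 1810564 and 1818192 in heart. Each condition had 1 library, so the spread between mice could not be set against any difference, and there are no p-values. Values in parentheses are 95% intervals from the number of reads and cover counting error only. In such bulk samples, fewer cells of a type and less RNA per cell cannot be told apart. The summed level of 15 heart muscle markers was 31856, 995 and 14313 CPM (reads scaled to an equal total of reads in genes for every library) in adhesion tissue and 180296, 145875 and 162894 CPM in heart. The adhesion libraries of days 1 and 7 thus held more heart muscle RNA than that of day 3. The summed level of 12 skeletal muscle markers was 8441, 16.7 and 2783 CPM in adhesion tissue and 1285, 803 and 1052 CPM in heart, so the adhesion library of day 3 again stood lowest. The part of these muscle transcripts in the collagen values was not tested.

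Collagen transcripts took a larger share of the RNA with each sampled day in adhesion tissue, and in heart their share was larger at both later days than at day 0. The 44 chains together took 0.467, 3.36 and 5.29% of the reads in genes in adhesion tissue and 0.284, 1.44 and 1.45% in heart. Their summed value on the deposited scale, which the authors set within each tissue, was 7.26-fold (7.09 to 7.43) higher in adhesion tissue at day 3 than at day 1. At day 7 it was 11.6-fold (11.4 to 11.9) higher than at day 1. In heart it was 4.48-fold (4.34 to 4.62) higher at day 3, and by day 7 it was 4.69-fold (4.55 to 4.84) higher, than at day 0, so most of the difference in heart was in place by day 3. In CPM the heart ratios to day 0 of all genes were larger by 0.17 at day 3 and 0.12 at day 7 on the log2 scale, and all chains together were 5.06-fold and 5.10-fold higher. The make-up of the collagen reads differed as well. Fibrillar chains took 46.7, 88.7 and 88.5% of the collagen reads in adhesion tissue and 40.8, 80.4 and 83.1% in heart. Type IV chains took 34.5, 4.05 and 3.20% in adhesion tissue and 37.2, 10.7 and 7.97% in heart, so that the first library of each tissue was rich in type IV and the later ones were dominated by fibrillar chains. The genes Col1a1, Col1a2 and Col3a1 alone held 39.1, 82.2 and 81.6% of the collagen reads in adhesion tissue and 33.5, 73.8 and 77.5% in heart.

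**Figure D1:**
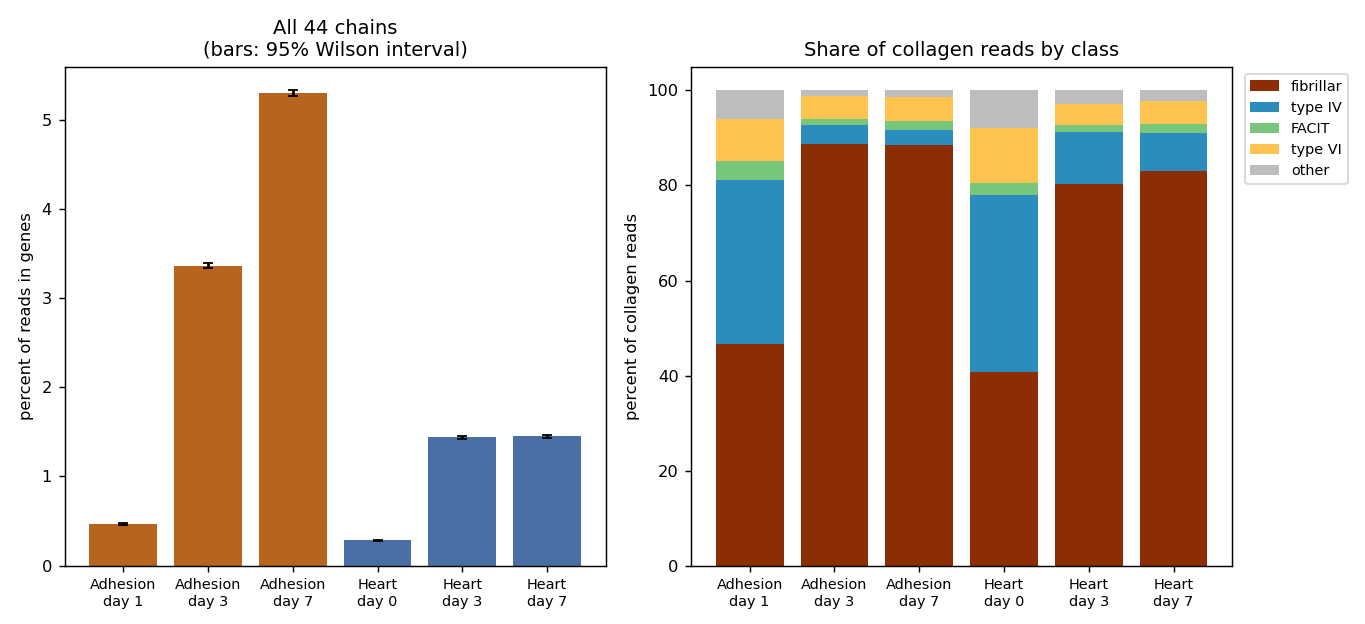
Share of collagen chain reads in the 6 libraries. The left panel gives the percent of all reads in genes that fell in the 44 chains, with 95% Wilson intervals, and the right panel divides the collagen reads of each library by class. Adhesion tissue reached 5.29% at day 7, and fibrillar chains filled over 80% of the collagen reads in the 4 later libraries.

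Chains over 3-fold apart were counted with a pseudocount of 1 on the deposited scale, among chains with a read in either library. In adhesion tissue at day 3, 14 of 44 chains lay over 3-fold above day 1 and 3 below it, while 3.78% of all genes with a read lay above and 6.70% below. At day 7 the counts were 19 higher and 1 lower of 44 against day 1, with 5.13% and 4.88% over all genes. In heart at day 3, 11 of 41 chains were higher and 1 lower than at day 0, against 6.66% and 1.77% of all genes. At day 7 there were 12 higher and 1 lower of 41, against 6.84% and 1.52%. The share of chains over 3-fold higher therefore lay above the share of all genes in these 4 comparisons. Of the fibrillar chains, 7 and 8 of 11 were higher in adhesion tissue at days 3 and 7 and 8 and 8 of 11 in heart. Of the 6 type IV chains, 0 and 2 were higher in adhesion tissue and 0 at both days in heart. Of the FACIT chains, 2 and 3 of 9 were higher in adhesion tissue, and 2 and 3 of 7 in heart. Of the 18 other chains, 5 and 6 were higher in adhesion tissue, and 1 at each day of 17 with a read in heart, and the 5 of adhesion tissue at day 3 were all type VI chains. The median log2 ratio over the chains was 0.44 and 1.30 in adhesion tissue, where over all genes it was -0.10 and -0.05. For heart these medians were 0.57 and 0.83, where over all genes it was -0.02 and 0.00. The chains over 3-fold lower were Col9a2, Col10a1 and Col13a1 in adhesion tissue at day 3, Col2a1 there at day 7 and Col9a2 in heart at both days, none of which had over 19 reads in any library. In CPM and in CPM without muscle loci the adhesion counts at day 3 were 14 higher and 1 lower, and with edgeR TMM 13 and 1.

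**Figure D2:**
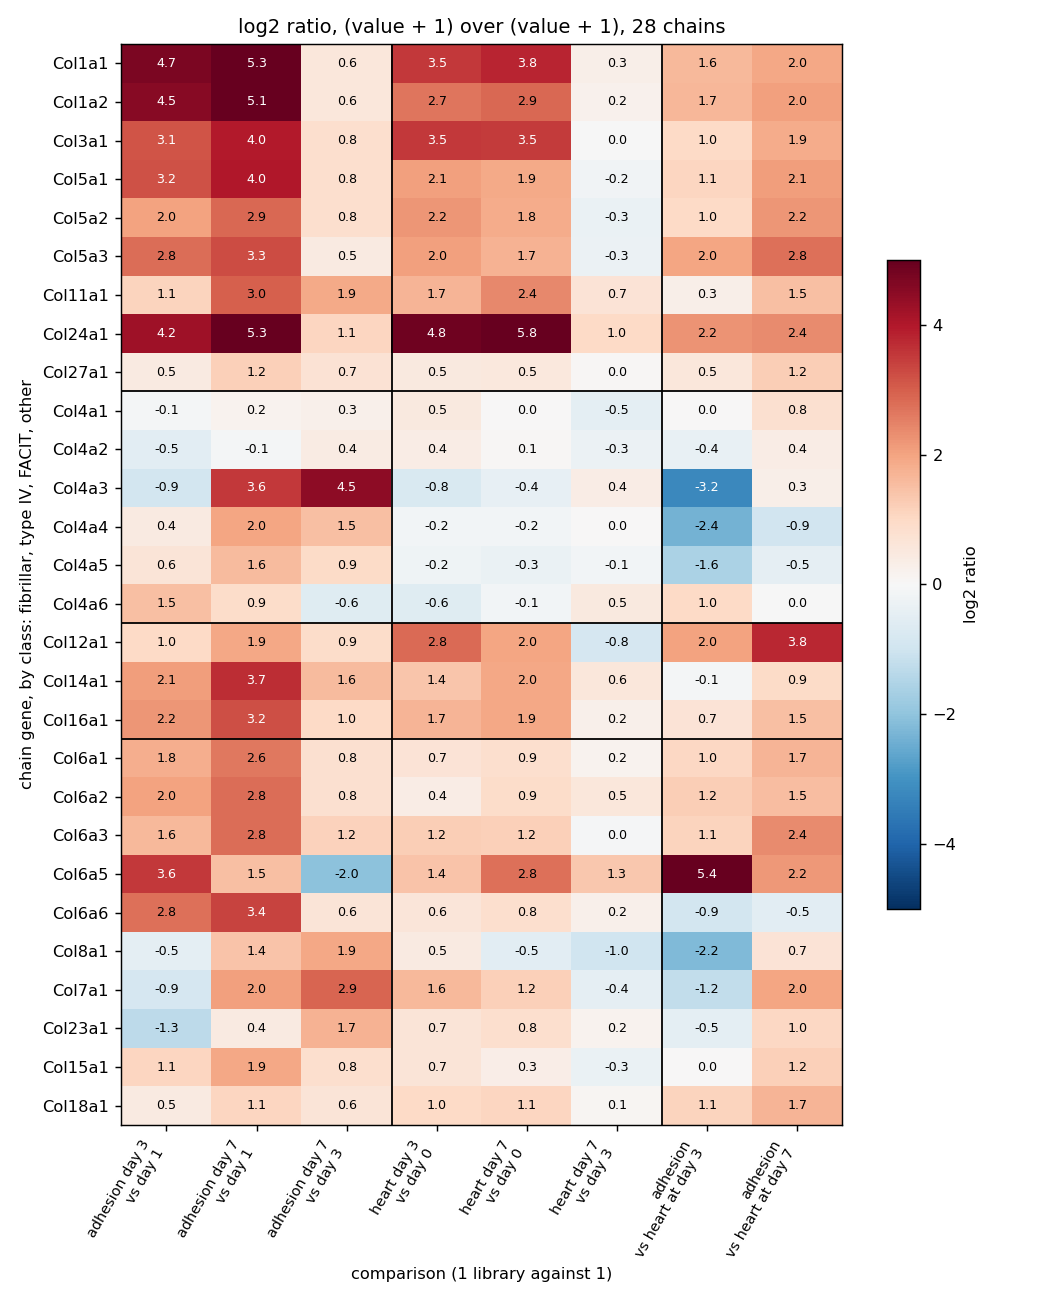
Ratios of 28 chains with at least 20 reads in a library, in 8 comparisons of 1 library against 1. Each cell gives the log2 of (value + 1) over (value + 1), with adhesion comparisons on the left, heart comparisons in the middle and adhesion over heart on the right. Type I, III, V and XXIV chains are red in all 4 comparisons with the first day, and Col4a1 and Col4a2 lie between -0.53 and 0.49 there.

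The 2 chains of type I collagen, the main collagen of scar, had higher ratios in adhesion tissue than the other chain of the 3 most read, Col3a1. Col1a1 (chr11:94936270-94951856, positions of the deposited tables, mm10) had 788, 18262 and 30606 reads in adhesion tissue and 484, 6631 and 7801 in heart. Its partner Col1a2 (chr6:4505697-4541543) had 532, 11104 and 18420 reads in adhesion tissue and 518, 3908 and 4399 in heart. Both were low in the first library of each tissue and high in both later ones. In adhesion tissue Col1a1 was 25.9-fold (24.1 to 27.8) higher at day 3, and by day 7 it was 38.6-fold (36.0 to 41.5) higher, than at day 1. Col1a2 was 23.3-fold (21.4 to 25.5) higher and 34.4-fold (31.6 to 37.6) higher there. In heart, against day 0, Col1a1 was 11.5-fold (10.5 to 12.6) higher at day 3, and by day 7 it was 14.0-fold (12.7 to 15.3) higher. Col1a2 was 6.32-fold (5.77 to 6.94) higher and 7.36-fold (6.72 to 8.08) higher, at both days below the interval of its partner. By number of reads Col1a1 stood 4th among all genes in adhesion tissue at days 3 and 7, and 14th and 13th in heart at days 3 and 7.

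Col3a1, the chain of type III collagen, which forms the finer fibrils of stretchable tissue and early scar, was the most read chain in 4 of the 6 libraries. It lies at chr1:45311538-45349706 and had 1942, 15310 and 30652 reads in adhesion tissue and 630, 8676 and 8246 in heart. Against day 1 in adhesion tissue it was 8.80-fold (8.39 to 9.23) higher at day 3, then 15.7-fold (15.0 to 16.4) higher at day 7, a smaller ratio than those of the type I chains. In heart it was 11.5-fold (10.6 to 12.5) higher at day 3, and by day 7 it was 11.3-fold (10.5 to 12.3) higher, than at day 0. Its day 7 value was 1.02-fold (0.987 to 1.05) lower than its day 3 value there, with 1 in the interval. Divided by kb of exon, its level was 195, 1703 and 2987 CPM per kb in adhesion tissue and 66.1, 861 and 815 in heart. On the same scale Col1a1 was at 93.7, 2406 and 3532 CPM per kb in adhesion tissue and 60.1, 779.6 and 913 in heart.

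Type V collagen starts and thins the fibrils of type I, and its 3 chains were higher at every later day in both tissues. Col5a1 had 215, 1765 and 3511 reads in adhesion tissue and 188, 934 and 809 in heart. Col5a2 had 261, 957 and 1936 reads in adhesion tissue and 98, 538 and 409 in heart, and Col5a3 had 92, 580 and 895 reads in adhesion tissue and 33, 165 and 129 in heart. In adhesion tissue at day 7 the 3 genes were 16.2-fold (14.1 to 18.7) higher, 7.37-fold (6.47 to 8.42) higher and 9.67-fold (7.79 to 12.1) higher than at day 1. In heart the ratios to day 0 were largest at day 3, at 4.16-fold (3.56 to 4.90) for Col5a1, 4.60-fold (3.70 to 5.77) for Col5a2 and 4.19-fold (2.87 to 6.29) for Col5a3. The day 7 ratio was 3.73-fold (3.18 to 4.39) for Col5a1, 3.62-fold (2.89 to 4.56) for Col5a2 and 3.39-fold (2.30 to 5.13) for Col5a3. Col3a1 and Col5a2 (chr1:45374331-45503282) are neighbours on chromosome 1, with 24624 bases between their facing 3′ ends.

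Col24a1, a fibrillar chain known from bone and from developing tissue, had few reads but among the largest ratios of the fibrillar class. Col24a1 had 6, 120 and 288 reads in adhesion tissue and 0, 27 and 53 in heart, with both day 7 libraries highest in their tissue. In adhesion tissue it was 22.3-fold (9.96 to 62.0) higher at day 3, and by day 7 it was 47.7-fold (21.7 to 131) higher, than at day 1. In heart, with day 0 set to a floor of 3 reads, it was 7.54-fold higher at day 3 and 15.3-fold higher at day 7. These values leave out the counting error of the later day. Col11a1, a chain of the type XI collagen that is best known from cartilage, had 3, 7 and 32 reads in adhesion tissue and 1, 6 and 10 in heart. At day 7 in adhesion tissue it was 10.6-fold (3.32 to 54.1) higher than at day 1. Col27a1, a fibrillar chain of cartilage and other tissues, had more reads in adhesion tissue at day 7 than in the other libraries. It had 43, 53 and 99 reads in adhesion tissue and 24, 40 and 40 in heart. At day 7 in adhesion tissue it was 2.29-fold (1.58 to 3.35) higher than at day 1, while in heart both intervals against day 0 held 1, at 1.40-fold (0.822 to 2.42) and 1.44-fold (0.850 to 2.50). The type II gene Col2a1, whose product is the main collagen of cartilage, had 4, 1 and 0 reads in adhesion tissue and 1, 1 and 0 in heart. Col11a2 had 11, 5 and 12 reads in adhesion tissue and 11, 10 and 12 in heart, at most 12 in any library, and codes for another type XI chain. The summed level of 11 cartilage markers that are not collagens was 32.4, 14.9 and 19.5 CPM in adhesion tissue and 51.4, 56.3 and 37.9 CPM in heart, with 4, 7 and 4 of them at 0 reads in adhesion tissue and 4, 4 and 3 in heart.

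**Figure D3:**
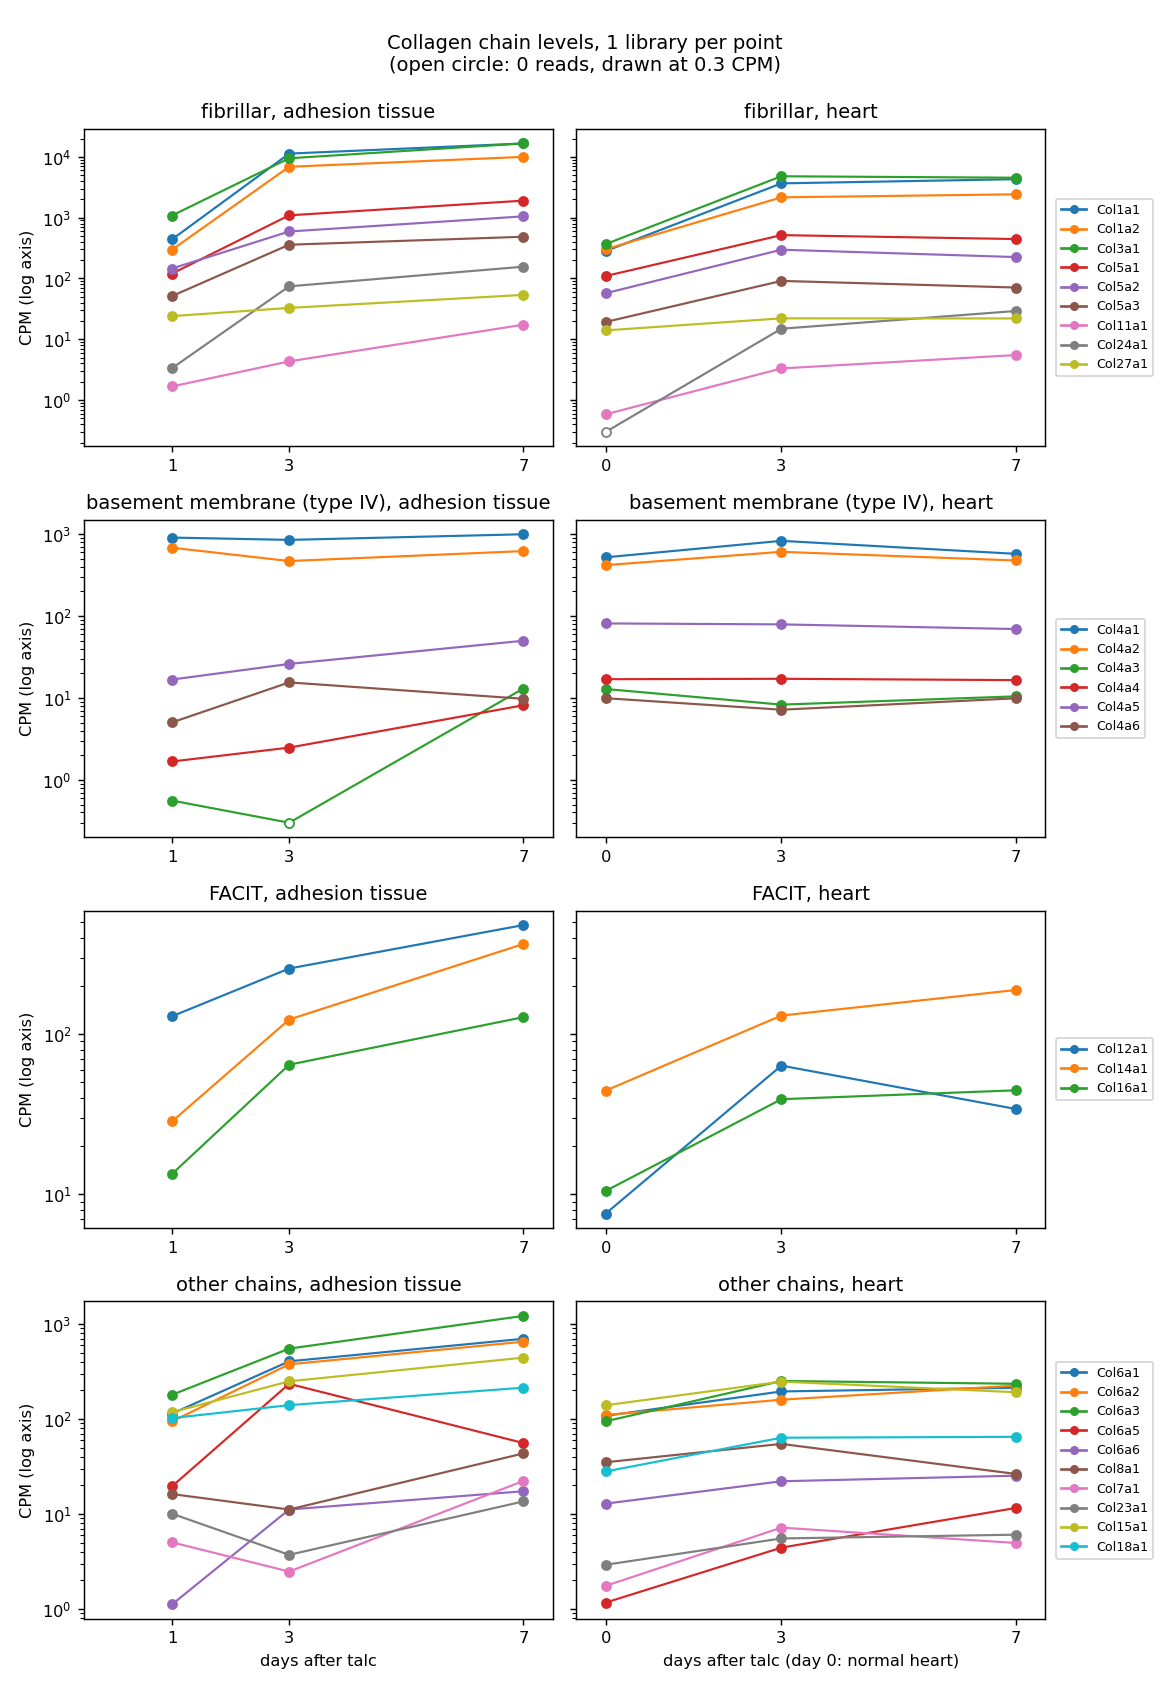
Levels in CPM on a log axis against the day after talc, for chains with at least 20 reads in a library, adhesion tissue on the left and heart on the right, 1 library a point. Chains of types I, III, V and XXIV climb between the first and second sampled day in both tissues, Col4a1 and Col4a2 stay between 417 and 994 CPM, and Col6a5 peaks in adhesion tissue at day 3.

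Promoter windows in the RefSeq annotation (GRCm38.p6, the assembly of mm10) were found for 35 of the 44 genes. A window holds 250 bases before the annotated start and 50 bases from it. The windows of 5 fibrillar genes are shown, all over 3-fold higher at both later days in both tissues than on the first day. Col1a1 and Col5a2, also over 3-fold higher there, had no window. Each window is given as the 140 bases before the start and the first 10 bases from it. Capitals mark 4 short motifs searched on both strands, the CCAAT box (CCAAT or ATTGG), the TATA box (TATAAA or TTTATA), the GC box (GGGCGG or CCGCCC) and the cyclic AMP response element (TGACGTCA, its own reverse complement).
Col1a2, chr6:4505478-4505627, plus strand: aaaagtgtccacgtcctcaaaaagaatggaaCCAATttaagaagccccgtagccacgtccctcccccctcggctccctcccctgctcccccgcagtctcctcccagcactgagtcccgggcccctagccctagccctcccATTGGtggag
Col3a1, chr1:45311398-45311547, plus strand: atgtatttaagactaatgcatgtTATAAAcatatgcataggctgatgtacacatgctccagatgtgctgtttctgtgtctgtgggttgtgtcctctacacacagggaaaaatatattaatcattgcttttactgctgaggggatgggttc
Col5a1, chr2:27886285-27886434, plus strand: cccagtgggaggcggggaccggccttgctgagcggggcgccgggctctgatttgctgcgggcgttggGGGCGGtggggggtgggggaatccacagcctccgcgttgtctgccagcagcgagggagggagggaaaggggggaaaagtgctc
Col5a3, chr9:20815058-20815207, minus strand: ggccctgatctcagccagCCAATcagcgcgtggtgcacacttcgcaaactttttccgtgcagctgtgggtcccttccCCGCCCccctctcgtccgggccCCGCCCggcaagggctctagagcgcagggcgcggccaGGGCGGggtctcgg
Col24a1, chr3:145292332-145292481, plus strand: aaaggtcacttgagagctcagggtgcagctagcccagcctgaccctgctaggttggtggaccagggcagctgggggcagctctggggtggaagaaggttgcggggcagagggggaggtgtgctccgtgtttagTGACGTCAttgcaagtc

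No motif of the 4 stands in all 5 of these stretches. The CCAAT box was found in 3 of the 8 windows of fibrillar genes and in 37.4% of all 32851 windows of the same length. The TATA box was found in 2 of the 8 and in 13.6% of all windows, and the GC box in 6 of the 8 and in 35.7%. The TATAAA letters begin 117 bases before the start in Col3a1 and 143 bases before it in Col11a2. Of the 5 windows of type IV genes, 4 held the GC box, 3 the CCAAT box and 0 the TATA box. Over all 38 collagen windows 23 held the GC box, so it was not particular to the fibrillar genes. The TGACGTCA element of Col24a1 begins 7 bases before its start, and 1.79% of all windows hold this element. The 4 motifs were chosen after the windows had been seen, and none overlaps another in the stretches shown. In the tables the start of Col1a2 lies 79 bases and that of Col5a3 33 bases downstream of the RefSeq start, and those of the other 3 genes are at the same base. A match describes the letters of a window and not a bound site.

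Partner chains did not all keep fixed proportions at the RNA level. Reads were divided by the exon length of the deposited tables for these ratios. Col1a1 stood to Col1a2 as 1.62 (1.45 to 1.81), 1.80 (1.76 to 1.84) and 1.82 (1.79 to 1.85) in adhesion tissue. In heart the ratio was 1.02 (0.902 to 1.16), 1.86 (1.79 to 1.93) and 1.94 (1.87 to 2.01). The normal type I molecule, a protein, has a pair of chains from Col1a1 for each one from Col1a2. At the RNA level, heart at day 0 was the one library of the 6 whose interval held a ratio of 1. Type III against type I, as Col3a1 over Col1a1, was 2.08 (1.91 to 2.26) in adhesion tissue at day 1, 0.708 (0.693 to 0.723) at day 3 and 0.846 (0.832 to 0.859) at day 7. The heart values were 1.10 (0.975 to 1.24), 1.10 (1.07 to 1.14) and 0.893 (0.865 to 0.921). The adhesion library of day 1 thus stood apart, with the highest ratio of the 6 libraries. Col5a1 over Col5a2 was 0.649 (0.539 to 0.780) in adhesion tissue at day 1 and between 1.37 and 1.56 in the other 5 libraries. These are the common partner chains of type V. Col5a1 over Col1a1 was 0.153 (0.131 to 0.178), 0.0540 (0.0514 to 0.0568) and 0.0641 (0.0619 to 0.0664) in adhesion tissue, so type V was scarcer against type I at both later days than at day 1. The heart ratios were 0.217 (0.183 to 0.258), 0.0788 (0.0735 to 0.0844) and 0.0580 (0.0539 to 0.0623), lower again at both later days than at day 0. These ratios also carry the unequal coverage of transcripts of different length and sequence, so a ratio is read across libraries and not as a number of molecules.

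**Figure D4:**
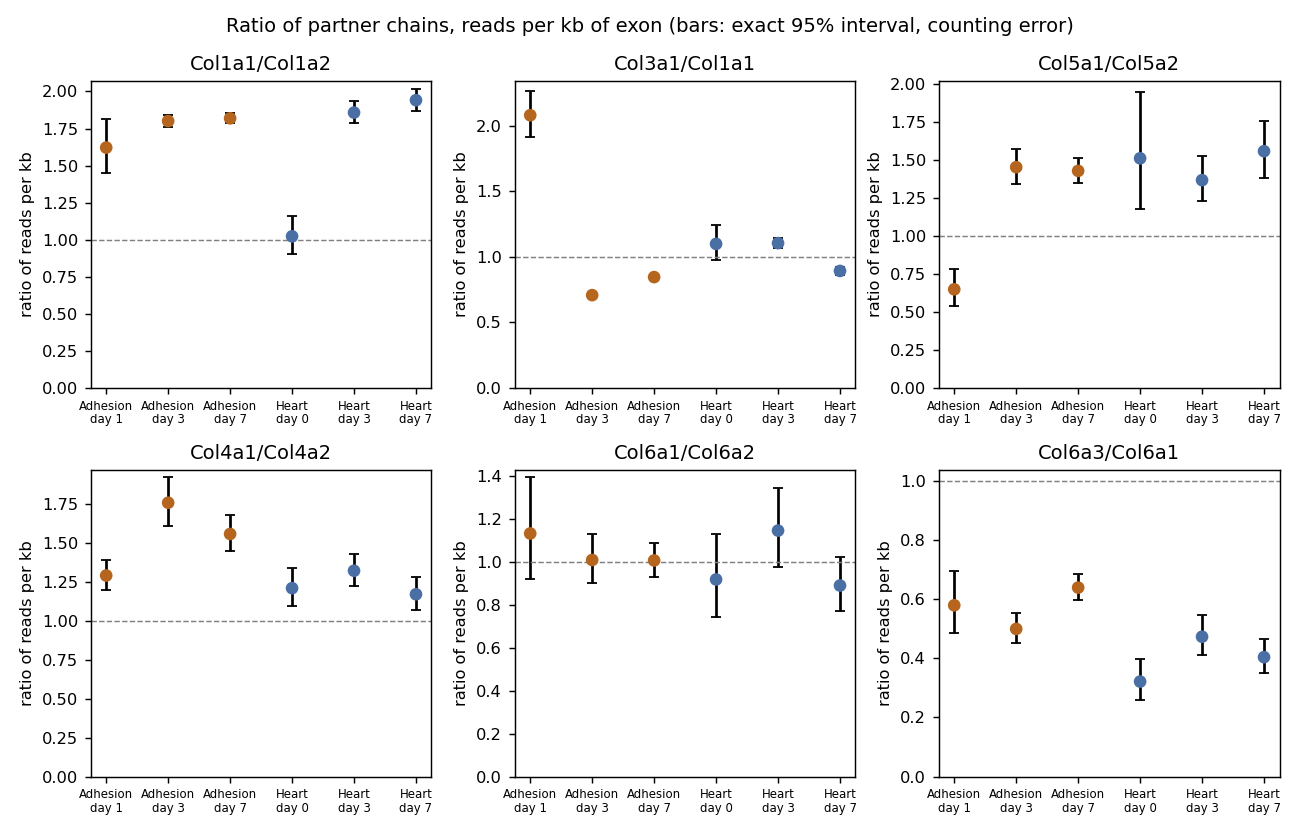
Ratios of reads per kb of exon between partner chains, with adhesion libraries in brown and heart libraries in blue, 1 library a point, and exact 95% intervals of the counting error. Col1a1 over Col1a2 lies at 1.02 in heart at day 0 and between 1.62 and 1.94 elsewhere, and Col3a1 over Col1a1 lies at 2.08 in adhesion tissue at day 1 and between 0.708 and 1.10 elsewhere.

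The summed basement membrane chains stayed close to their first level while the summed fibrillar chains were 13.8-fold to 22.0-fold higher in adhesion tissue. Against day 1 in adhesion tissue the summed type IV value was 1.17-fold (1.11 to 1.24) lower at day 3, then 1.08-fold (1.02 to 1.13) higher at day 7. The heart sum was 1.29-fold (1.22 to 1.37) higher at day 3 than at day 0, and at day 7 the ratio was 1.0-fold (0.943 to 1.07), with 1 inside the interval. Col4a1 and Col4a2, the chains of the common type IV molecule found under nearly all endothelium, held most of these reads. Col4a1 had 1621, 1371 and 1834 reads in adhesion tissue and 891, 1496 and 1043 in heart. Col4a2 had 1219, 757 and 1143 reads in adhesion tissue and 715, 1099 and 865 in heart. In adhesion tissue Col4a1 was 1.12-fold (1.05 to 1.20) higher and Col4a2 1.07-fold (0.989 to 1.16) lower at day 7 than at day 1, and the interval of Col4a2 held 1. At day 3 Col4a2 was 1.44-fold (1.32 to 1.58) lower than at day 1, and Col4a1 was 1.06-fold (0.985 to 1.14) lower, with 1 in the interval. In heart at day 3 both were higher than at day 0, Col4a1 1.41-fold (1.29 to 1.53) and Col4a2 1.29-fold (1.17 to 1.42). Col4a1 over Col4a2 per kb was 1.29 (1.20 to 1.39), 1.76 (1.61 to 1.93) and 1.56 (1.45 to 1.68) in adhesion tissue, and 1.21 (1.10 to 1.34), 1.32 (1.22 to 1.43) and 1.17 (1.07 to 1.28) in heart. The genes are arranged head to head on chromosome 8, where Col4a1 (chr8:11198423-11312826) runs on the minus strand and Col4a2 (chr8:11312829-11449287) on the plus strand. In RefSeq both starts fall within the 22 bases below, shown on the plus strand with a GC box in capitals.
Col4a2 start to Col4a1 start, chr8:11312805-11312826: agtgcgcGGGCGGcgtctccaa

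The minor type IV chains behaved differently from the common pair. Col4a3 and Col4a4, which with Col4a5 make the type IV network of lung and kidney, were scarce in adhesion tissue until day 7. Col4a3 had 1, 0 and 24 reads in adhesion tissue and 22, 15 and 19 in heart. Col4a4 had 3, 4 and 15 reads in adhesion tissue and 29, 31 and 30 in heart, and the 2 genes lie 71 bases apart, head to head on chromosome 1. The pair made up the 2 type IV chains over 3-fold higher in adhesion tissue at day 7 than at day 1. Against day 3, Col4a3 was 7.12-fold higher in adhesion tissue at day 7, with day 3 set to the floor of 3 reads and the counting error of day 7 left out. The summed level of 10 lung epithelium markers was 356, 66.2 and 729.7 CPM in adhesion tissue and 191, 155 and 401 CPM in heart. The surfactant gene Sftpc, made by lung epithelium, had 1, 0 and 549 reads in adhesion tissue and 0, 0 and 203 in heart. In heart, where Sftpc reads were found at day 7, Col4a3 was 1.34-fold (0.690 to 2.61) lower there than at day 0, with 1 in the interval. Of the 10 lung markers, 3, 5 and 0 were at 0 reads in adhesion tissue and 8, 6 and 0 in heart. Few genes thus held the heart sums of days 0 and 3, and these sums are no measure of the list as a whole. In adhesion tissue the day 7 sum was 2.10-fold (1.91 to 2.31) higher than that of day 1. Yet 7 of the 10 markers were over 3-fold higher there, against 5.13% of all genes, and their median log2 ratio was 3.99. The adhesion sum of day 1 is therefore no such measure either. The part of lung RNA in the Col4a3 and Col4a4 values was not tested. Col4a5 had 30, 42 and 92 reads in adhesion tissue and 139, 143 and 126 in heart, so it was the most read of the 4 minor chains in each library. Col4a6, the partner of Col4a5 around smooth muscle, had 9, 25 and 18 reads in adhesion tissue and 17, 13 and 18 in heart. In adhesion tissue at day 3 it was 3.10-fold (1.40 to 7.55) higher than at day 1 without a pseudocount and under 3-fold with it.

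FACIT chains were higher at the later days through 3 genes, Col12a1, Col14a1 and Col16a1, which coat fibrils of type I or take part in their spacing. Col12a1 (chr9:79598991-79718678) had 231, 414 and 882 reads in adhesion tissue and 13, 115 and 62 in heart. It was already at 129 CPM in adhesion tissue at day 1, the highest FACIT level of the first libraries, and 3.79-fold (3.28 to 4.41) higher at day 7 than at day 1. In heart it was 7.42-fold (4.17 to 14.3) higher at day 3, and by day 7 it was 4.13-fold (2.25 to 8.19) higher, than at day 0, so its heart level was highest at day 3. Col14a1 had 51, 199 and 672 reads in adhesion tissue and 76, 236 and 342 in heart. It was 13.1-fold (9.84 to 17.8) higher in adhesion tissue at day 7 than at day 1, and in heart 2.60-fold (2.0 to 3.42) higher at day 3, and by day 7 it was 3.90-fold (3.03 to 5.07) higher, than at day 0. In heart Col14a1 was the one FACIT chain whose interval lay above 1 at day 7 against day 3, at 1.5-fold (1.27 to 1.78) higher. Col16a1 had 24, 104 and 235 reads in adhesion tissue and 18, 71 and 81 in heart, and it was 9.73-fold (6.38 to 15.5) higher in adhesion tissue at day 7 than at day 1. The other 6 FACIT chains had 15 reads or fewer in every library. Col20a1 had 15, 6 and 5 reads in adhesion tissue and 13, 11 and 12 in heart. Col19a1 had 2, 2 and 4 reads in adhesion tissue and 0, 0 and 0 in heart, and Col22a1 had 2, 0 and 4 reads in adhesion tissue and 4, 1 and 2 in heart. The type IX genes, whose products coat cartilage fibrils, were near 0 in every library. Col9a1 had 2, 0 and 0 reads in adhesion tissue and 0, 0 and 0 in heart. Col9a2 had 3, 0 and 1 reads in adhesion tissue and 2, 0 and 0 in heart, and Col9a3 had 6, 3 and 3 reads in adhesion tissue and 0, 1 and 1 in heart. Col9a3 shares 229 exon bases with Tcfl5 on the opposite strand, and no source used here says whether reads were counted by strand.

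Type VI collagen is built from a chain each of Col6a1 and Col6a2 and one more, which in most tissues is that of Col6a3. The summed value of the 6 type VI genes was 6.60-fold (6.11 to 7.14) higher in adhesion tissue at day 7 than at day 1, and 2.0-fold (1.81 to 2.21) higher in heart at day 7 than at day 0. Col6a1 had 204, 654 and 1289 reads in adhesion tissue and 185, 353 and 388 in heart. Col6a2 had 169, 608 and 1201 reads in adhesion tissue and 189, 289 and 409 in heart, and Col6a3 had 322, 890 and 2245 reads in adhesion tissue and 162, 455 and 427 in heart. In adhesion tissue at day 7 the 3 genes were 6.28-fold (5.41 to 7.32) higher, 7.06-fold (6.01 to 8.35) higher and 6.93-fold (6.16 to 7.81) higher than at day 1. In heart at day 7 none of them was over 3-fold higher than at day 0, with ratios of 1.82-fold (1.52 to 2.18), 1.88-fold (1.57 to 2.24) and 2.28-fold (1.90 to 2.75). Col6a1 over Col6a2 per kb was near 1 in each library, between 0.890 and 1.15, with 1 inside every interval. Col6a3 over Col6a1 was 0.579 (0.484 to 0.693), 0.499 (0.451 to 0.553) and 0.639 (0.596 to 0.685) in adhesion tissue and 0.321 (0.258 to 0.399), 0.473 (0.410 to 0.545) and 0.404 (0.351 to 0.464) in heart.

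The chains that can stand in for Col6a3 did not move together. Col6a5 (chr9:105856070-105960643) had 35, 379 and 103 reads in adhesion tissue and 2, 8 and 21 in heart, and so peaked in adhesion tissue at day 3. It was 12.1-fold (8.54 to 17.6) higher there at day 3 than at day 1, and at day 7 4.13-fold (3.32 to 5.19) lower than at day 3. It was the one chain of the 28 with at least 20 reads in a library that was over 3-fold lower in adhesion tissue at day 7 than at day 3. Its neighbour Col6a6 (chr9:105689417-105828085) had 2, 18 and 32 reads in adhesion tissue and 22, 40 and 46 in heart, and at day 7 in adhesion tissue it was 15.9-fold (4.06 to 137) higher than at day 1. Col6a4, on the other side of Col6a5 in the same cluster on chromosome 9, had 2, 4 and 5 reads in adhesion tissue and 0, 0 and 0 in heart. The summed level of 6 keratinocyte markers, looked at because COL6A5 is known from human skin, was 38.5, 13.6 and 4.34 CPM in adhesion tissue and 2.34, 4.42 and 2.20 CPM in heart. The adhesion sums rested on 69, 22 and 8 reads and were highest at day 1, and Col6a5 was highest there at day 3. The part of keratinocyte RNA in the Col6a5 values was not tested. Of the 6 markers, 2, 2 and 3 were at 0 reads in adhesion tissue and 4, 3 and 4 in heart.

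The multiplexins Col15a1 and Col18a1 lie next to basement membranes, and Col18a1 holds the sequence of endostatin. Col15a1 had 211, 403 and 816 reads in adhesion tissue and 239, 448 and 348 in heart. Col18a1 had 183, 226 and 394 reads in adhesion tissue and 48, 115 and 118 in heart. In adhesion tissue at day 7 Col15a1 was 3.84-fold (3.30 to 4.49) higher and Col18a1 2.14-fold (1.79 to 2.56) higher than at day 1. In heart at day 3 the ratio to day 0 was 1.57-fold (1.34 to 1.85) for Col15a1 and 2.01-fold (1.42 to 2.87) for Col18a1. Both ratios in adhesion tissue at day 7 lay above those of Col4a1 and Col4a2, while in heart at day 3 the intervals of Col15a1 and Col4a1 overlapped. Col8a1, a network chain made by vessels and endothelium, had 29, 18 and 80 reads in adhesion tissue and 60, 99 and 48 in heart. It was 3.96-fold (2.35 to 7.01) higher in adhesion tissue at day 7 than at day 3, and in heart 2.0-fold (1.40 to 2.88) lower at day 7 than at day 3. Col7a1, the chain of the anchoring fibrils that tie basement membrane to stroma, had 9, 4 and 41 reads in adhesion tissue and 3, 13 and 9 in heart, and shares 36 exon bases with Mir711, which had 0 reads in each library. It was 9.13-fold (3.31 to 35.1) higher in adhesion tissue at day 7 than at day 3. Col23a1, a transmembrane chain, had 18, 6 and 25 reads in adhesion tissue and 5, 10 and 11 in heart, and its adhesion level was lowest at day 3.

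The rest of the other chains had 19 reads or fewer in every library. Col10a1 had 19, 5 and 13 reads in adhesion tissue and 5, 9 and 10 in heart, and is known as the network chain of growth plate cartilage. Col8a2 had 3, 3 and 4 reads in adhesion tissue and 4, 6 and 6 in heart, far fewer than its partner Col8a1. Among the transmembrane chains, Col17a1 had 12, 6 and 6 reads in adhesion tissue and 6, 7 and 7 in heart, and it is best known from skin. Col13a1 had 4, 0 and 5 reads in adhesion tissue and 2, 4 and 4 in heart. Col25a1 had 4, 1 and 1 reads in adhesion tissue and 3, 1 and 7 in heart, and its product is known from nervous tissue. Col26a1 and Col28a1, which belong to none of the larger classes, were as low. Col26a1 had 1, 0 and 1 reads in adhesion tissue and 1, 2 and 0 in heart. Col28a1 had 9, 4 and 10 reads in adhesion tissue and 10, 11 and 7 in heart. Of the 8 intervals of each of these 7 chains, the one that excluded 1 was that of Col10a1 in adhesion tissue at day 3 against day 1, and no other difference was detectable at this depth. The 16 chains that never reached 20 reads held 407 of the 217612 collagen reads of the 6 libraries.

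Adhesion tissue had more fibrillar collagen RNA than heart on the same day, and the gap was wider at day 7 than at day 3. The tables of the tissues were scaled apart, so these ratios are of CPM. All chains together were 2.34-fold (2.30 to 2.37) higher in adhesion tissue than in heart at day 3, then 3.65-fold (3.60 to 3.70) higher at day 7. Fibrillar chains were 2.58-fold (2.54 to 2.62) higher and 3.89-fold (3.83 to 3.95) higher, and type IV chains 1.14-fold (1.07 to 1.20) lower and 1.47-fold (1.39 to 1.55) higher. At day 3, 7 of 42 chains were over 3-fold higher and 4 lower in adhesion tissue, against 10.2% and 9.30% of all genes with a read. The 7 were Col1a1, Col1a2, Col5a3, Col24a1, Col12a1, Col6a4 and Col6a5, and the 4 were Col4a3, Col4a4, Col8a1 and Col13a1. This balance turned on the scale, with 5 higher and 5 lower under edgeR TMM or CPM without muscle loci, and 5 higher and 6 lower with DESeq2 size factors. At day 7, 15 of 42 were higher and 1 lower, against 9.33% and 6.86% of all genes. They now included Col5a1 and Col5a2 as well as Col5a3, and also Col3a1, Col6a1, Col6a3 and Col18a1. The lower one was Col25a1, with at most 7 reads in a library. The median log2 ratio over all genes was 0.22 at day 3 and 0.29 at day 7, and with edgeR TMM scaling the ratios of all genes were smaller by 0.26 on the log2 scale at both days. On that scale all chains together were 1.95-fold higher at day 3 and 3.05-fold higher at day 7.

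The widest gap at day 7 among chains with at least 20 reads in either library was that of Col12a1, 14.0-fold (10.8 to 18.4) higher in adhesion tissue, with 882 reads there and 62 in heart. Col5a3 was 6.84-fold (5.68 to 8.29) higher, Col24a1 5.36-fold (3.98 to 7.32) higher and Col6a3 5.18-fold (4.67 to 5.76) higher at day 7. Col1a1, Col1a2 and Col3a1 were 3.87-fold (3.77 to 3.97) higher, 4.13-fold (3.99 to 4.27) higher and 3.66-fold (3.58 to 3.75) higher. All these chains were also higher in adhesion tissue at day 3, Col12a1 by 4.03-fold (3.27 to 5.0). At day 3 the largest ratio was that of Col6a5, 53.1-fold (26.7 to 124) higher in adhesion tissue, with 379 reads there and 8 in heart. Some chains were lower in adhesion tissue. Col4a4 was 6.92-fold (2.45 to 27.0) lower and Col8a1 4.91-fold (2.95 to 8.62) lower at day 3. Col4a5 was 3.04-fold (2.14 to 4.40) lower at day 3, and by day 7 it was 1.39-fold (1.05 to 1.84) lower. Col4a1, at 1.03-fold (0.954 to 1.11), and Col15a1, at 1.01-fold (0.879 to 1.16), had 1 in the interval at day 3, and both were on the other side of 1 with edgeR TMM, DESeq2 or muscle-free scaling.

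**Figure D5:**
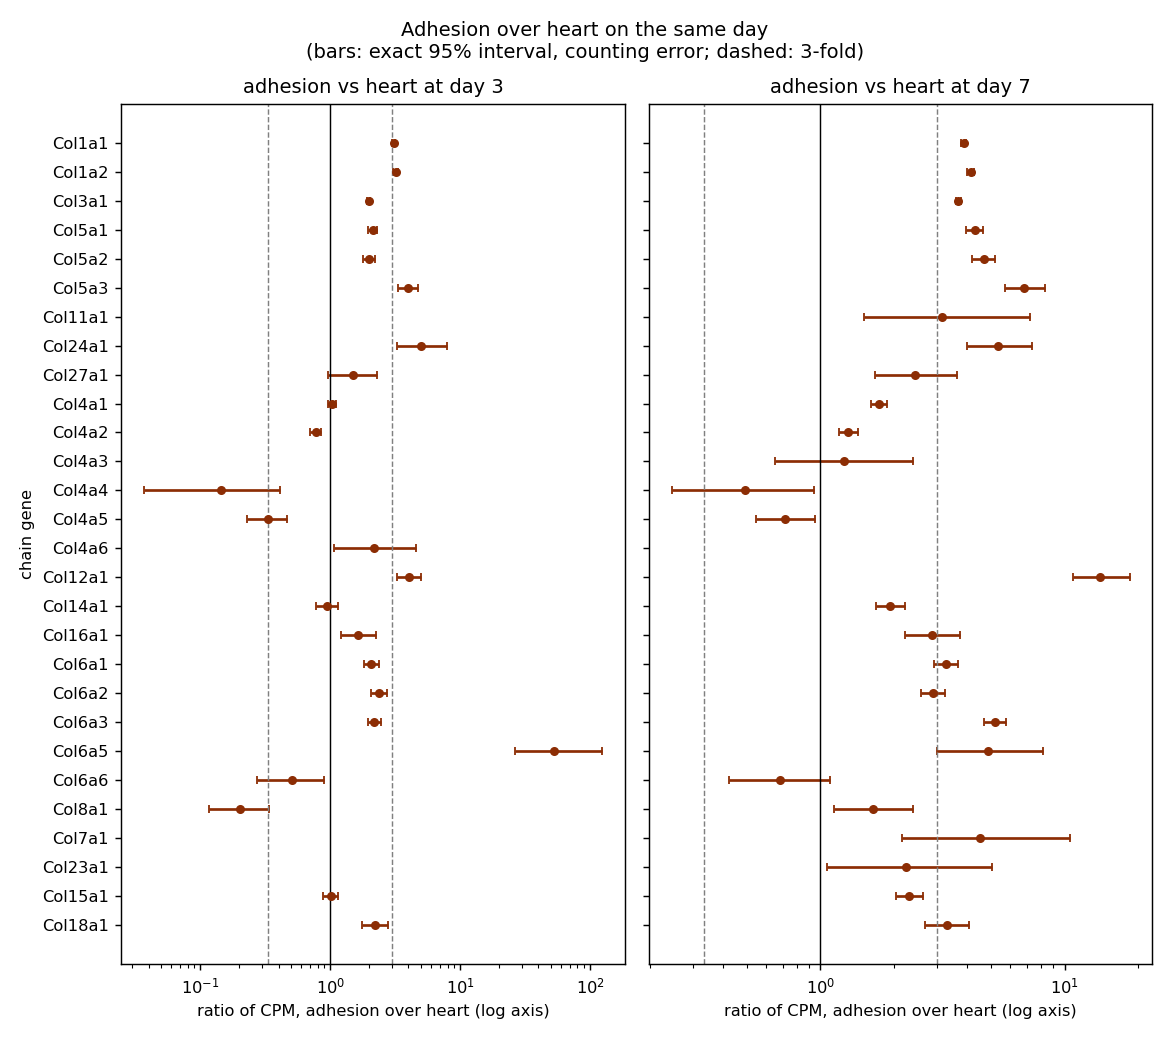
Ratio of CPM in adhesion tissue over heart at day 3 (left) and day 7 (right) on a log axis, for chains with a read in both libraries and at least 20 in one of them. Bars are exact 95% intervals of the counting error and dashed lines mark 3-fold. Of the chains in both panels all but Col6a5 lie further right at day 7, with Col12a1 at 14.0 then, and Col6a5 stands alone at 53.1 at day 3.

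The step between days 3 and 7 was upward for most chains in adhesion tissue and mixed in heart, a difference between tissues that was not tested. In adhesion tissue 7 of 43 chains at day 7 were over 3-fold above day 3 and 1 was below, against 4.88% and 1.82% of all genes. The 7 were Col11a1, Col4a3, Col22a1, Col8a1, Col7a1, Col13a1 and Col23a1, most of them with few reads, and the lower one was Col6a5. In heart 1 of 40 was higher and 1 lower, against 2.93% and 2.37%, and both, Col25a1 and Col26a1, had under 8 reads in every library. In CPM, with edgeR TMM and in CPM without muscle loci the heart counts were 1 higher and 0 lower. By the counting interval of day 7 over day 3, 25 of 43 chains with a read lay above 1 and 1 below in adhesion tissue, against 11.1% and 8.78% of all genes with a read. In heart 6 of 40 lay above and 7 below, against 5.80% and 4.33%. An interval excludes 1 more readily for a gene with many reads, and the shares of all genes are not matched for this. In adhesion tissue 15 of 44 chains with a read were higher at both steps, day 3 against day 1 and day 7 against day 3, among them all chains of types I, III and V, the chains Col6a1, Col6a2 and Col6a3, and Col24a1, and 2.16% of all genes with a read met the same rule. In heart 5 of 41 were higher at both steps, against 0.706% of all genes, namely Col1a1, Col1a2, Col24a1, Col14a1 and Col6a2. Another 6 heart chains were higher at day 3 than at day 0 and then lower at day 7 than at day 3, against 1.96% of all genes, and they were Col5a1, Col5a2, Col4a1, Col4a2, Col12a1 and Col15a1. At day 7 against day 3, 8 of 43 chains lay on opposite sides of 1 in the tissues by interval, as did 0.873% of all genes with a read.

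The genes whose products handle collagen chains had smaller summed ratios than the fibrillar chains, between 1.23 and 3.66 over 7 lists in adhesion tissue at day 7 against day 1. The counts of these genes over 3-fold higher stand beside 5.13% of all genes in adhesion tissue at day 7 against day 1 and 6.84% in heart at day 7 against day 0. Of 13 genes of prolyl and lysyl hydroxylation, which modifies new chains, 3 were over 3-fold higher in adhesion tissue at day 7 than at day 1. These were P4ha2, P4ha3 and Plod2. The list also held genes that are not hydroxylases, such as Crtap and Ppib. The summed value of all 13 was 1.23-fold (1.16 to 1.31) higher. P4ha3, a subunit of the prolyl hydroxylase, had 0, 13 and 54 reads in adhesion tissue and 1, 9 and 7 in heart. In heart 1 of 13 was over 3-fold higher at day 7 than at day 0. The lysyl hydroxylase gene Plod2 had 74, 257 and 261 reads in adhesion tissue and 60, 93 and 94 in heart. Of 8 chaperone and export genes with a read, 1 was over 3-fold higher in adhesion tissue at day 7, Fkbp7, and their summed value was 1.31-fold (1.23 to 1.39) higher. Serpinh1, the collagen chaperone HSP47, had 814, 1546 and 1300 reads in adhesion tissue and 521, 824 and 472 in heart, and was 1.59-fold (1.45 to 1.73) higher in adhesion tissue at day 7 than at day 1. Of the propeptide-removing genes, 3 of 8 were over 3-fold higher in adhesion tissue at day 7 and 2 of 8 in heart at day 7. Pcolce, whose product enhances the trimming of type I, had 49, 202 and 364 reads in adhesion tissue and 91, 190 and 170 in heart and was 7.38-fold (5.47 to 10.2) higher in adhesion tissue at day 7.

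The crosslinking genes, summed, were above their first level at both later days of each tissue. Of the 5 genes, 1 was over 3-fold higher in adhesion tissue at day 7 than at day 1. In heart 1 of 5 was over 3-fold higher at day 7 than at day 0. The shares of all genes were 5.13% and 6.84%. The 5 lysyl oxidase genes summed to 473, 1061 and 949.8 CPM in adhesion tissue and 109.7, 437 and 311 CPM in heart. On the deposited scale their sum was 2.06-fold (1.89 to 2.24) higher in adhesion tissue at day 7 than at day 1, and in heart 3.53-fold (3.01 to 4.16) higher at day 3, then 2.61-fold (2.21 to 3.09) higher at day 7, against day 0. Lox had 434, 881 and 636 reads in adhesion tissue and 15, 268 and 122 in heart, where it was 15.0-fold (8.92 to 27.1) higher at day 3, then 7.05-fold (4.11 to 13) higher at day 7, against day 0. Lox was thus already abundant in adhesion tissue at day 1, when Col1a1 had 788 reads. Of 7 proteoglycans that bind fibrils, 5 were over 3-fold higher in adhesion tissue at day 7 than at day 1 and 0 in heart than at day 0, against 5.13% and 6.84% of all genes. Aspn, the gene of asporin, had 6, 48 and 165 reads in adhesion tissue and 35, 65 and 86 in heart, while Lum, of lumican, had 42, 93 and 490 in adhesion tissue and 90, 224 and 227 in heart. In heart Fmod, of fibromodulin, had 32, 23 and 11 reads, over 3-fold fewer on the deposited scale at day 7 than at day 0. Of 6 collagen-cleaving protease genes, 4 were over 3-fold higher in adhesion tissue at day 7 and 4 in heart at day 7. The neutrophil collagenase gene Mmp8 was over 3-fold lower in adhesion tissue at day 7 than at day 1, with 124, 37 and 32 reads. Ctsk, of cathepsin K, had 10, 134 and 1367 reads in adhesion tissue and 11, 31 and 66 in heart. Mmp14, a membrane-bound collagenase gene, had 207, 497 and 975 reads in adhesion tissue and 22, 181 and 190 in heart. Of 7 collagen receptor genes, 2 were over 3-fold higher in adhesion tissue at day 7 and 0 in heart. Mrc2, which takes up collagen fragments, was 10.2-fold (7.16 to 15.0) higher in adhesion tissue at day 7 than at day 1.

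Marker lists of cell types that the tissues could hold were summed beside the collagen chains. At day 7 against the first day, the summed fibroblast markers were 1.89-fold (1.80 to 1.98) higher in adhesion tissue and 1.18-fold (1.13 to 1.23) higher in heart, and those of activated fibroblasts 3.58-fold (3.31 to 3.88) higher in adhesion tissue and 1.87-fold (1.69 to 2.07) higher in heart, each below the fibrillar ratio of the same comparison. The summed level of 12 fibroblast markers, 3 of which are also among the handling genes, was 1538, 1412 and 2835 CPM in adhesion tissue and 2386, 2542 and 3056 CPM in heart. That of 8 markers of activated fibroblasts was 439.6, 561 and 1539 CPM in adhesion tissue and 326, 593 and 661 CPM in heart, highest in each tissue at day 7. The 9 smooth muscle and pericyte markers summed to 426, 514 and 705 CPM in adhesion tissue and 1797, 1551 and 1452 CPM in heart. These lay higher in each heart library than in any adhesion library. The 9 endothelial markers summed to 505, 589 and 658 CPM in adhesion tissue and 1064, 1181 and 1064 CPM in heart. Markers of tendon, another tissue rich in type I collagen, summed to 99.4, 15.5 and 92.7 CPM over 6 genes in adhesion tissue and 33.9, 24.9 and 18.7 CPM in heart. Their sum was lowest in adhesion tissue at day 3. Of the 5 tendon genes with a read at day 1 or 3 there, 0 were over 3-fold higher at day 3 and 1 was lower. The shares of all genes were 3.78% and 6.70%. The median log2 ratio of the 5 was 0.52, so this sum is no measure of the tendon list as a whole. Mesothelium, the cell layer that lines the cavity, had 10 markers at 150.3, 111 and 77.5 CPM in adhesion tissue and 46.1, 10.5 and 26.9 CPM in heart, highest in both at the first day. Macrophage markers, 10 genes, summed to 2656, 6794 and 6876 CPM in adhesion tissue and 388, 1316 and 1594 CPM in heart, and were lowest in both at the first day, as the fibrillar chains were. Neutrophil markers, 7 genes, summed to 2524, 730.2 and 631 CPM in adhesion tissue and 29.8, 124 and 104 CPM in heart, and adhesion tissue at day 1 stood highest of the 6 libraries. The 10 bone markers include the macrophage-expressed Spp1. They summed to 1973, 4489 and 8408 CPM in adhesion tissue and 50.2, 407 and 554 CPM in heart. The ratio of their heart sums, day 7 over day 0, came to 10.1 (8.14 to 12.8), and its interval overlapped that of the fibrillar chains. In heart 6, 6 and 6 of the 10 were without reads, and in adhesion tissue 6, 5 and 5. Among the 4 with a read in that heart comparison, 1 lay over 3-fold higher, and the median log2 ratio stood at 0.43. This ratio of sums is therefore no measure of the bone list as a whole. In adhesion tissue the day 7 sum was 4.36-fold (4.21 to 4.53) higher than that of day 1. Of 5 genes with a read, 1 was over 3-fold higher there and 1 lower, against 5.13% and 4.88% of all genes. Their median log2 ratio was 0.57, so the adhesion sums are no such measure either. The part of any cell type in the collagen values was not tested.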

How the data were processed

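Total RNA of adhesion tissue and heart had been depleted of ribosomal RNA and sequenced on a MiSeq. The authors aligned the reads to mm10, and TopHat, Cufflinks and edgeR are named in the submitters' processing notes without versions. No source used here gives the counting tool, the annotation or the use of strand. The deposited tables hold for each gene a signal, its reads multiplied by 1 factor per library that the authors set within a tissue. The deposited exon length of each gene, in bases, is a value of another kind and was used for levels per kb only. Columns with the authors' own comparison scores and q-values were also deposited and were not used.

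Dividing each column by its lowest value above 0 gave whole reads, within 0.1 read, for 100% of the 23420 values in each of the 6 libraries. Ratios within a tissue used the deposited scale and ratios between tissues used CPM of these reads. Intervals are exact 95% intervals of the conditional binomial, and Wilson intervals for shares. A ratio is printed for chains with at least 20 reads in one of the libraries, and where the other library had 0 reads a floor of 3 reads was used, without an interval. With 1 library per condition there are no residual degrees of freedom, so no count test was run. The code for ratios and intervals was run on simulated reads drawn with counting error alone. That run checks the code and cannot speak to the spread between mice.

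The members and the gene lists were chosen with earlier results of these data known. Of the lists of handling genes, up to 3 members by the interval bound nearest to 1 and the members past 3-fold were open to be named. Alternatives were pseudocounts of 0.5 and 5, at least 30 reads, a 2-fold threshold, intervals that exclude 1, plain CPM, edgeR TMM, DESeq2 size factors, and CPM without 29 muscle, mitochondrial and ribosomal loci. CPM with collagen reads left out of the totals was added after seeing the data. R 4.3.3, edgeR 4.0.16, DESeq2 1.42.0, Python 3.11.15, pandas 2.3.3 and scipy 1.17.1 were used.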

Additional observations from a re-analysis of the deposited data

Results flagged for a closer look

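In 8 chains the ratio of day 7 to day 3 lay on opposite sides of 1 in adhesion tissue and heart, with an interval that excluded 1 in each tissue, among 43 chains with a read. Of all genes with a read, 0.873% met the same rule, a share that is not matched for the number of reads. The difference between the tissues was not tested, since each day had 1 library per tissue. Of the type V chains, Col5a1 had a day 7 to day 3 ratio of 1.77 in adhesion tissue and 0.895 in heart, and Col5a2 one of 1.80 in adhesion tissue and 0.786 in heart. For the common basement membrane chains the ratio was 1.19 in adhesion tissue and 0.721 in heart for Col4a1, and 1.34 in adhesion tissue and 0.814 in heart for Col4a2. The FACIT chain Col12a1 had 1.90 in adhesion tissue and 0.557 in heart. The multiplexin Col15a1 had 1.80 in adhesion tissue and 0.803 in heart, and the network chain Col8a1 had 3.96 in adhesion tissue and 0.501 in heart. Col6a5 was the one of the 8 in the other direction, at 0.242 in adhesion tissue and 2.71 in heart.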

How the results depend on the processing

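No paired analysis was possible because each condition had 1 library, and for the same reason no library could be left out. The summed ratio of all chains stayed on its side of 1 in every comparison and scale, while Col4a4, Col27a1, Col15a1 and Col4a1 crossed 1 under another scale in comparisons where their ratio was near 1. The summed ratio of adhesion tissue over heart was between 1.95 and 2.38 at day 3 and between 3.05 and 3.80 at day 7 over the scales, and 86 of 140 counts of chains over 3-fold stayed within 1.5 times. The balance of higher and lower chains in adhesion tissue against heart at day 3, 7 and 4 in CPM, was 5 and 6 with DESeq2 size factors and 5 and 5 with edgeR TMM or muscle-free CPM. With a pseudocount of 0.5 the lower counts were 2 in heart at day 3, 3 at day 7 against day 0 and 2 against day 3, and in adhesion tissue 5 at day 3 and 2 at day 7 against day 1. With a pseudocount of 5, or with at least 30 reads, all lower counts within heart and within adhesion tissue against day 1 were 0, as was the higher count in heart at day 7 against day 3. The higher count in adhesion tissue at day 7 against day 3 was then 3 with the pseudocount and 4 with the minimum, and the lower counts of adhesion tissue against heart were 1 and 2 at day 3 and 0 at day 7. Under CPM, edgeR TMM and muscle-free CPM the lower counts in heart were 0 in every comparison, and in adhesion tissue at day 3 they were 1. At a 2-fold threshold the lower counts were 3, 3 and 2 in heart, 9 and 4 in adhesion tissue against day 1, and 8 and 2 against heart at days 3 and 7, and the higher counts were 2 in heart and 13 in adhesion tissue at day 7 against day 3, and 14 against heart at day 3. With intervals that exclude 1, the higher counts were 17 in heart at day 3, 6 in heart and 25 in adhesion tissue at day 7 against day 3, and 15 and 23 against heart at days 3 and 7. The lower counts were then 0 and 0 in heart against day 0, 7 at day 7 against day 3, and 2 against heart at day 7. The chains over 3-fold lower within a tissue on the deposited scale had under 20 reads, apart from Col6a5, while those lower by interval in heart at day 7 against day 3 included well-read chains such as Col4a1 and Col5a1. Depth limits the 16 chains under 20 reads, and with 1 library per condition the spread between mice was not measured.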
